A study of Mus musculus with 2 samples.

Results

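The genes of core-binding factor and its ETO-family partners were examined in a whole-genome bisulfite comparison of cultures differentiated from mouse adipose progenitors. The genes were Runx1, Runx2, Runx3, Cbfb, Runx1t1 and Cbfa2t3. A region belonged to a gene when it overlapped the RefSeq span of that gene (GRCm38.p6) or the 10 kb on either side. Of 28141 differentially methylated regions listed by the authors on mm10, 37 met this rule. Of these, 34 overlapped a gene span, 35 lay within 2 kb and 2 lay between 2 kb and 10 kb away. The 6 genes were selected on the regions, levels and directions of this same contrast, so the counts and differences below describe them and are not tested.

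The study sequenced 2 libraries, both from C57BL/6 adipose tissue. The library labelled CD137+ came from progenitors sorted on CD137, a costimulatory surface receptor (TNFRSF9) used to mark beige precursors. The library labelled PDGFRα+ (CD140+) came from progenitors sorted on the platelet-derived growth factor receptor alpha. Both populations were isolated with magnetic beads, grown in culture, driven to differentiate with an adipogenic mix and given 1 µM dexamethasone, a glucocorticoid. An untreated library was not analysed here. The labels name subcutaneous or visceral fat as the source without saying which gave which library, and give no number of mice. With a single library per group, differences between the groups have no replicate check and no test was made. Read depth behind each level is unknown, so levels carry no interval.

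Core-binding factor is a heterodimer. A RUNX protein binds DNA through its Runt domain, and CBFβ, encoded by Cbfb, binds the RUNX protein and strengthens its hold on DNA. RUNX1 is required for the formation of blood stem cells, RUNX2 for bone formation, and RUNX3 acts in T cells and sensory neurons. The ETO proteins, encoded by Runx1t1, Cbfa2t3 and Cbfa2t2, do not bind DNA themselves and bring corepressors and histone deacetylases to genes. In leukaemias, RUNX1 and RUNX1T1 are fused by a translocation. In fat, RUNX1T1 has been described as a regulator of preadipocytes, and RUNX2 is known for directing mesenchymal progenitors towards bone. Each Runx gene has a distal promoter, called P1, and a proximal promoter, called P2.

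Most regions at these genes were less methylated in PDGFRα+ cells. A minority, at the first promoter of Runx1, inside Runx2 and on the 5′ side of Cbfa2t3, were more methylated. The methylation level is the fraction of cytosines read as methylated, and a difference is the PDGFRα+ level minus the CD137+ level. Of the 37 regions, 28 were lower and 9 (24.3%) were higher in PDGFRα+, against 22.3% higher among all listed regions. The share of these genes' regions that were higher was thus close to the background. The median difference was -0.485, against -0.488 over all listed regions. In the 28 lower regions the median levels were 0.246 for PDGFRα+ and 0.867 for CD137+. In the 9 higher regions they were 0.900 and 0.344. The direction differed between genes: all regions of Runx3 (5), Runx1t1 (3) and Cbfb (1) were lower, Runx1 had 7 lower and 1 higher, Runx2 had 10 lower and 4 higher, and Cbfa2t3 had 2 lower and 4 higher. Over all protein-coding genes, 38.4% had a region within 10 kb and 29.5% within 2 kb. Nothing is read from the 6 of 6 here, since the genes were selected on these values.

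**Figure D1:**
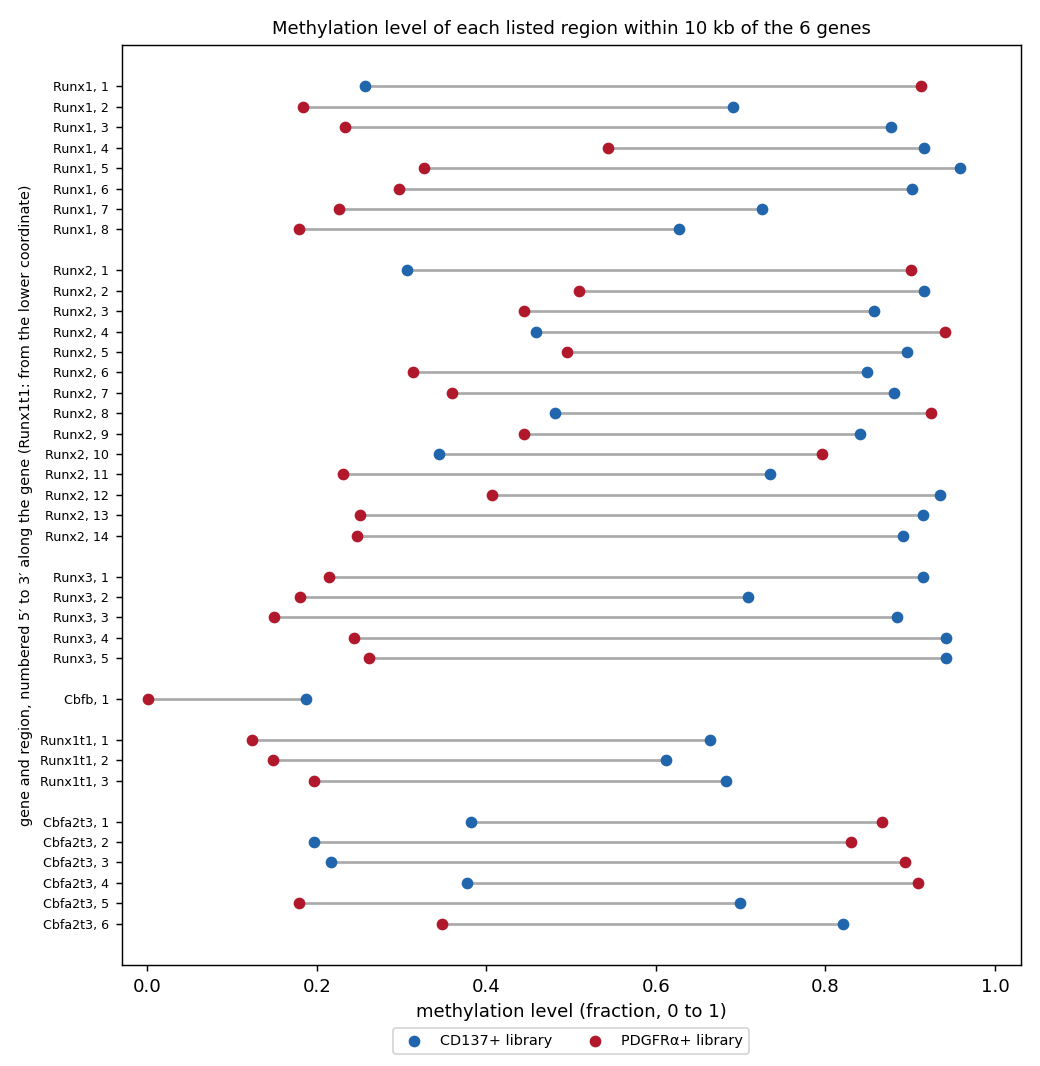
Methylation level (x axis, fraction from 0 to 1) of each of the 37 regions in the CD137+ library (blue points) and the PDGFRα+ library (red points), 1 row per region, joined by a grey line. Red points lie to the left in every region of Runx3, Cbfb and Runx1t1, and to the right in 4 of 6 regions of Cbfa2t3, 4 of 14 of Runx2 and 1 of 8 of Runx1.

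The promoters that carried a region are shown first, because the direction there was opposite to that of most regions. RefSeq promoter windows, 250 bases before to 50 after an annotated transcription start, were found for 5 of the 6 genes, 8 windows in all. A listed region overlapped 2 of the 8, that of the distal start of Runx1 and that of the first start of Cbfa2t3. Over protein-coding genes, 1.04% of windows overlapped a region (221 of 21237). Both regions were higher in PDGFRα+, as were 39.4% of the 213 regions that overlap such a window. The 250 bases before each start are printed 5′ to 3′ on the strand of the gene (RefSeq, GRCm38.p6), with every CpG in capitals. CpG is the dinucleotide at which methylation was measured, but a printed CpG need not be among the cytosines counted. The proximal Runx1 promoter, which overlapped no region, is given for contrast.
Runx1, distal start, chr16:92826075-92826324, minus strand: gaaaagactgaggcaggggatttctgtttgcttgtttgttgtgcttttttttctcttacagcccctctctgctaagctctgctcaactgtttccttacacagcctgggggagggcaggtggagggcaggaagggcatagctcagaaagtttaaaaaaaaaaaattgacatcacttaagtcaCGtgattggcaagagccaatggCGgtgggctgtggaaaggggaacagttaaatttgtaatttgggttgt
Runx1, proximal start, chr16:92697330-92697579, minus strand: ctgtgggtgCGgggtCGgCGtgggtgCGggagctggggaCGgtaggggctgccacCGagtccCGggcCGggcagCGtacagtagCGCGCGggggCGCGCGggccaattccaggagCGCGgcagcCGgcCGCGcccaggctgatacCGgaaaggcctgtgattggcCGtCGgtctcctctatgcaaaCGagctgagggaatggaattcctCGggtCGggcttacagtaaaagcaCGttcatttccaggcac
Cbfa2t3, first start, chr8:122699110-122699359, minus strand: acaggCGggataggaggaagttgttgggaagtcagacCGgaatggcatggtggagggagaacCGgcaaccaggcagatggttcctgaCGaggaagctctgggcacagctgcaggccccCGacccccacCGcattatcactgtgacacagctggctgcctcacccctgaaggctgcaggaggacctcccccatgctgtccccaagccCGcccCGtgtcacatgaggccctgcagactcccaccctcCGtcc
The distal Runx1 stretch holds 2 CpGs, both inside the listed region, and the proximal stretch holds 27. The Cbfa2t3 stretch holds 9 CpGs, all inside the region, whose count of 10 cytosines does not cover both strands of all 9. Per window of 300 bases, the distal Runx1 window held 2 CpGs, the proximal window 35 and the Cbfa2t3 window 10, against a median of 13 over protein-coding genes. Both windows with a region therefore held fewer CpGs than the median window, and the proximal Runx1 window held more. The Runx2 window (2) and the distal Runx3 window (8) also held fewer than the median, and overlapped no region. The remaining windows without a region, of Cbfb (30), proximal Runx3 (45) and the second Cbfa2t3 start (53), held more than the median. Whether CpG content goes with a listed region was not tested.

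Runx1 was less methylated in PDGFRα+ cells along its body and more methylated at its distal start. The gene spans 225 kb on chromosome 16 (92601466 to 92826074) and is read from the minus strand. The higher region, chr16:92825768-92826143, runs from 69 bases before the distal start to 306 bases after it. Its level was 0.913 in PDGFRα+ and 0.257 in CD137+, over 10 cytosines in 376 bases. The other 7 regions were lower in PDGFRα+, with levels of 0.179 to 0.543 against 0.627 to 0.959 in CD137+. A pair of these lay between the distal and proximal starts. At chr16:92762270-92762494, which also overlaps the long noncoding RNA gene Gm30281, the levels were 0.184 (PDGFRα+) and 0.691 (CD137+). At chr16:92717899-92718084 they were 0.233 and 0.877, the widest difference of the 7, at -0.64. The other 5 lay downstream of the proximal start, the nearest 12617 bases from it (chr16:92684548-92684712, 0.543 against 0.916).

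The lower region of Runx1 nearest its 3′ end was the richest in cytosines. That region, chr16:92605688-92606108, held 62 cytosines in 421 bases, or 14.7 per 100 bases against a median of 4.62 over all listed regions, and only 0.174% of listed regions held 60 or more. Its levels were 0.179 (PDGFRα+) and 0.627 (CD137+). By the size of the authors' area statistic, the score of their region caller, it ranked 43 of 21870 lower regions, while by the size of the difference it ranked 17189. Its difference of -0.45 was thus smaller than that of most lower regions (median -0.527). The remaining regions, at chr16:92612635-92612888 (0.226 against 0.726), chr16:92631228-92631810 (0.297 against 0.902) and chr16:92674371-92674451 (0.327 against 0.959), had larger differences on 6 to 15 cytosines each. Among 998 protein-coding genes whose span was within 1.5 times that of Runx1, the median gene had 3 regions, and 15.3% had at least the 8 of Runx1.

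Runx2 held the most regions and was mixed in direction. The gene spans 319 kb on chromosome 17 (44495987 to 44814797, minus strand), and all 14 regions lay inside it. Among 669 protein-coding genes of similar span, the median was 4 regions and 6.13% had 14 or more. The 10 lower regions had PDGFRα+ levels of 0.231 to 0.509 and CD137+ levels of 0.734 to 0.935. The 4 higher regions had PDGFRα+ levels of 0.796 to 0.940 and CD137+ levels of 0.306 to 0.481.

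The higher regions of Runx2 were spread between lower ones, except the region nearest the start. That region, chr17:44792071-44792493, lay 22134 bases downstream of the annotated start and had levels of 0.901 (PDGFRα+) and 0.306 (CD137+) over 17 cytosines. It lies also in Supt3, a gene of a transcription coactivator complex whose span overlaps the 5′ end of Runx2. The other 3 had smaller differences, of 0.44 to 0.48, on 7 or 8 cytosines each. The region chr17:44672969-44673186 (0.940 against 0.459) lay only 1928 bases from a lower region, chr17:44670823-44671040 (0.496 against 0.896). Of 6341 neighbouring listed regions within 10 kb of each other, 78.5% had the same direction, as did 10 of 13 such pairs at the 6 genes. Within 1 kb all 3 pairs at these genes had the same direction (94.5% of 1720 pairs overall), among them chr17:44713235-44713457 (0.444 against 0.858) and chr17:44713542-44713681 (0.509 against 0.917) in Runx2. The widest difference in Runx2 was at chr17:44538832-44539289, with 21 cytosines and levels of 0.251 (PDGFRα+) and 0.915 (CD137+). The last region before the 3′ end, chr17:44500471-44500542, had a similar difference of -0.64 on 5 cytosines. No listed region overlapped the promoter window of Runx2. Only 1 window was found for this gene, so its proximal promoter was not examined.

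**Figure D2:**
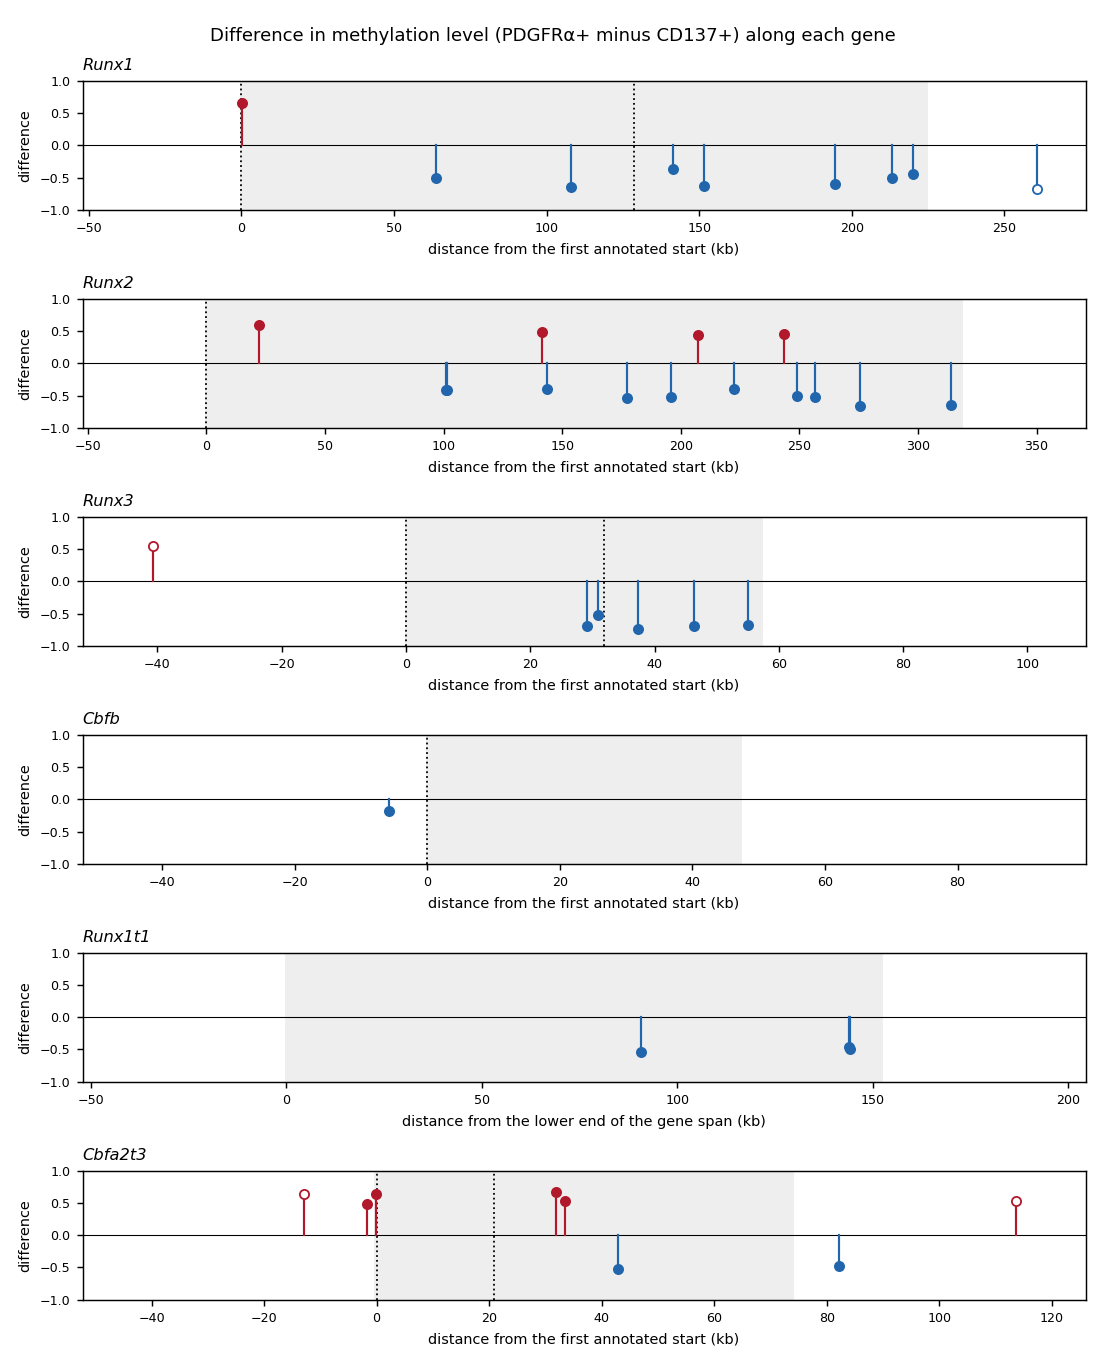
Difference in methylation level (y axis, PDGFRα+ minus CD137+) of each region against its distance along the gene in kb (x axis), with the gene span in grey and annotated starts as dotted lines. Filled points lie within 10 kb of the span and open points between 10 kb and 50 kb. Higher regions (red) sit at the first starts of Runx1 and Cbfa2t3, and all 5 regions of Runx3 (blue) lie in the 3′ part of the gene, around and beyond its proximal start.

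Runx3 was lower in PDGFRα+ cells in every region, with the widest differences of the 3 Runx genes. The gene spans 57.3 kb on chromosome 4 (135120645 to 135177990, plus strand). Its 5 regions had PDGFRα+ levels of 0.150 to 0.262 and CD137+ levels of 0.708 to 0.943. The median difference was -0.699, against -0.527 over all lower regions. By the size of the difference, 4 of the 5 ranked 711 to 1768 of 21870 lower regions, and the other ranked 10861. The gene was selected on these same values, so the ranks only describe it. Of 966 genes with at least 5 regions within 10 kb, 26.5% had every region lower.

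None of the Runx3 regions lay in the 28950 bases after its distal start. The region nearest a start, chr4:135151232-135151710, ended 835 bases upstream of the proximal start and held 33 cytosines. Its levels were 0.181 (PDGFRα+) and 0.708 (CD137+). The region before it, chr4:135149595-135149894, had levels of 0.214 and 0.915. The longest, chr4:135157555-135158551, covered 997 bases with 28 cytosines and had levels of 0.150 (PDGFRα+) and 0.884 (CD137+). Only 1.25% of all listed regions were 900 bases or longer. The regions chr4:135167003-135167069 (0.244 against 0.943) and chr4:135175654-135175781 (0.262 against 0.943) lay in the last part of the gene. Among 3325 protein-coding genes of similar span, the median was 1 region and 3.16% had 5 or more.

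The distal windows of the 3 Runx genes share a sequence that RUNX proteins recognise. Its core was searched on both strands as TGTGGT, which reads ACCACA on the other strand. The variant TGCGGT, which reads ACCGCA on the other strand, was searched too. Either form occurred in 21.6% of the 21237 windows, TGTGGT in 15.0% and TGCGGT in 7.43%. In each distal Runx window ACCACA occurred as a pair whose first bases were 8 apart. Such a pair was found in 4 of the 21237 windows, 3 of them those of Runx1, Runx2 and Runx3, with the spacing chosen after it was seen. The pairs are printed 5′ to 3′ on the strand of the gene, with the motif in capitals.
Runx1, chr16:92826030-92826049: acaACCACAgaACCACAagt
Runx2, chr17:44814588-44814607: acaACCACAgaACCACAagt
Runx3, chr4:135120508-135120527: tcaACCACAgaACCACAagg
The pair of Runx1 lies inside the region that was higher in PDGFRα+, at bases 29 and 37 counted from the distal start. The pairs of Runx2 (bases 24 and 32) and Runx3 (-134 and -126, before the start) lie in no listed region. The Runx2 window also held ACCACA at -80 and TGCGGT at base 40. The Cbfa2t3 window held ACCGCA at -124, inside its region. The proximal windows of Runx1 and Runx3, the window of Cbfb and the second window of Cbfa2t3 held neither form. A match of letters does not show binding.

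Cbfb, which encodes the subunit shared by all RUNX proteins, had 1 region, unlike the others in kind. It lay 5694 bases upstream of the gene (105170674 to 105217989, chromosome 8, plus strand), at chr8:105164763-105164980, and was not within 2 kb. Its level was 0.0011 in PDGFRα+ and 0.188 in CD137+, a difference of -0.187. Only 0.707% of all listed regions had an absolute difference under 0.3, and 0.288% had a library below 0.02. It held 62 cytosines in 218 bases, or 28.4 per 100 bases, and 0.309% of listed regions held 20 or more per 100 bases. By the authors' statistic it ranked 32 of 21870 lower regions, and by the size of the difference 21852. The nearest other protein-coding gene was Ces4a, 14654 bases away. Among 3697 protein-coding genes of similar span, 50.3% had no region within 10 kb.

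**Figure D3:**
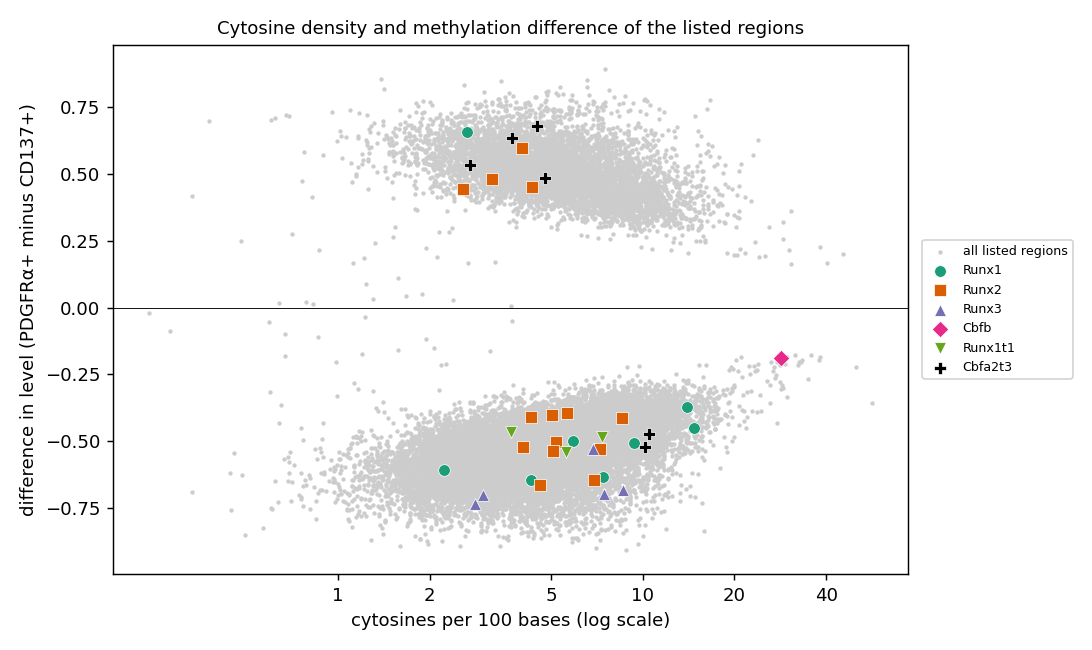
Difference in methylation level (y axis, PDGFRα+ minus CD137+) against cytosines per 100 bases (x axis, log scale) for all 28141 listed regions (grey) and the regions of the 6 genes (coloured symbols). The Cbfb region stands at 28.4 cytosines per 100 bases with a difference of -0.187, apart from the other 36, which lie at 2.23 to 14.7 per 100 bases.

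Runx1t1 and Cbfa2t3, the ETO-family genes, went in different directions. Runx1t1 (chromosome 4, 13742628 to 13895056, 152 kb) had 3 regions, all lower in PDGFRα+. At chr4:13833227-13833494, with 15 cytosines, the levels were 0.124 (PDGFRα+) and 0.664 (CD137+). The other 2, chr4:13886585-13886719 (0.149 against 0.612) and chr4:13886818-13886885 (0.197 against 0.682), lay 98 bases apart on 5 cytosines each. CD137+ levels at Runx1t1, 0.612 to 0.682, were below the 0.820 that was the median of all lower regions. Cbfa2t2, the remaining ETO-family gene, had 1 region within 10 kb, lower in PDGFRα+ (0.0600 against 0.592).

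Cbfa2t3, whose product ETO2 acts in blood stem cells and red cell precursors, had 4 higher and 2 lower regions. The gene spans 74.2 kb on chromosome 8 (122625136 to 122699332, minus strand). The region at its first annotated start, chr8:122699087-122699354, runs from 245 bases before that start to 22 after it. That start (122699109) lies inside the span, whose 5′ end is at 122699332. The region overlaps the long noncoding RNA gene Gm10612. Its level was 0.830 in PDGFRα+ and 0.197 in CD137+, over 10 cytosines. Further upstream, 1458 bases outside the span, chr8:122700790-122701020 had levels of 0.866 and 0.383. The other higher regions lay 789 bases apart inside the gene, downstream of the second start, the nearer 10801 bases from it. They were chr8:122666953-122667374, with 19 cytosines (0.894 in PDGFRα+ and 0.217 in CD137+), and chr8:122664943-122666163, with 33 cytosines over 1221 bases (0.909 and 0.377). In the 4 higher regions, PDGFRα+ levels were 0.830 to 0.909 and CD137+ levels were 0.197 to 0.383.

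The lower regions of Cbfa2t3 lay on its 3′ side. They were chr8:122656146-122656243 inside the gene (0.179 in PDGFRα+ and 0.700 in CD137+) and chr8:122616832-122616898, 8238 bases outside it and 1241 bases from Trappc2l (0.348 and 0.821). Of 966 genes with at least 5 regions within 10 kb, 12.5% had more higher than lower regions. Among 2879 protein-coding genes of similar span, 3.02% had 6 or more regions, and 28 had 4 or more higher ones.

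The limit of 10 kb decided a few regions. Inside it but beyond 2 kb were the Cbfa2t3 region at 8238 bases and the Cbfb region at 5694 bases. Just outside was a higher region 12517 bases upstream of Cbfa2t3, chr8:122711849-122712029 (0.888 in PDGFRα+ and 0.243 in CD137+). Within 50 kb there were 3 more. A lower region lay 35759 bases beyond the 3′ end of Runx1 (0.119 against 0.802), and higher regions lay 40611 bases upstream of Runx3 (0.733 against 0.177) and 39534 bases beyond the 3′ end of Cbfa2t3, in Galns (0.724 against 0.197).

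The genes most like each member with at least 2 regions, which leaves out Cbfb, were sought among protein-coding genes with the same numbers of higher and lower regions within 10 kb and a span within 1.5 times. The measure was the gap in median difference between the same 2 libraries. For Runx1 (median difference -0.503), 13 genes qualified, and the nearest were Parp8 (-0.505) and Plce1 (-0.492). Only Sash1 (-0.477) qualified for Runx2 (-0.411). That median of Runx2 compares with a mean weighted by cytosines of -0.259. For Runx3 (-0.699), 17 qualified, with Actn4 (-0.668) and Mdfic (-0.656) nearest. Runx1t1 (-0.485) had 89 such genes, with Fam184a and Oxct1 nearest (both -0.484). For Cbfa2t3 (0.507), 7 qualified, and the nearest were Arhgap25 (0.473) and St3gal1 (0.462).

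Genes that work with core-binding factor were mixed, as were its blood-cell targets, and the few bone and cartilage targets with a region were lower in PDGFRα+, as most genes with a region were. In a list of 37 cofactors and partners, 25 (67.6%) had a region within 10 kb, against 38.4% of all protein-coding genes. Of the 25, 16 were mostly lower, 4 mostly higher and 5 even, and 35 of their 101 regions were higher (34.7%, against 22.3% of all listed regions). The median over genes was -0.466, against -0.475 for all protein-coding genes with a region. Kat6b, a histone acetyltransferase gene, was lower in 5 of 5 regions (mean levels of 0.258 for PDGFRα+ and 0.888 for CD137+). Twist1, whose product binds and restrains RUNX2, was higher in 4 of 4 (0.812 and 0.290). Ets1, whose product binds DNA together with RUNX1, was higher in 5 of 6 (0.754 and 0.412), and Erg, another ETS factor gene, was even, with 5 and 5. Tle2 and Tle5 are neighbours and share a region.

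Of 15 bone and cartilage targets, 6 had a region, a share near the 38.4% of all protein-coding genes. All 11 of their regions were lower in PDGFRα+, where 22.3% of all listed regions were higher. Ibsp, encoding bone sialoprotein, had levels of 0.254 (PDGFRα+) and 0.828 (CD137+). Spp1, encoding osteopontin, had 0.234 and 0.698. Tnfsf11, encoding the osteoclast factor RANKL, had mean levels of 0.374 and 0.840 over 2 regions, and Vegfa, an angiogenic factor gene, had 0.135 and 0.676. Over all genes with a region, 69.9% were mostly lower and 21.8% mostly higher, which is the background for these 6. Of 20 blood-cell targets, 11 had a region (55.0%, against 38.4% of all protein-coding genes), with 5 mostly lower, 3 mostly higher and 3 even, and 9 of their 20 regions were higher (45.0%, against 22.3% of all listed regions). Gfi1, a repressor gene of blood stem cells, was lower (0.147 against 0.873), as was Itga2b, the platelet integrin gene, in 2 of 2 regions (0.176 against 0.706). Spi1, encoding the myeloid factor PU.1, had 1 region of each direction, and Bcl11b, a T-cell factor gene, had 3 of each. The median over genes was -0.0631.

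**Figure D4:**
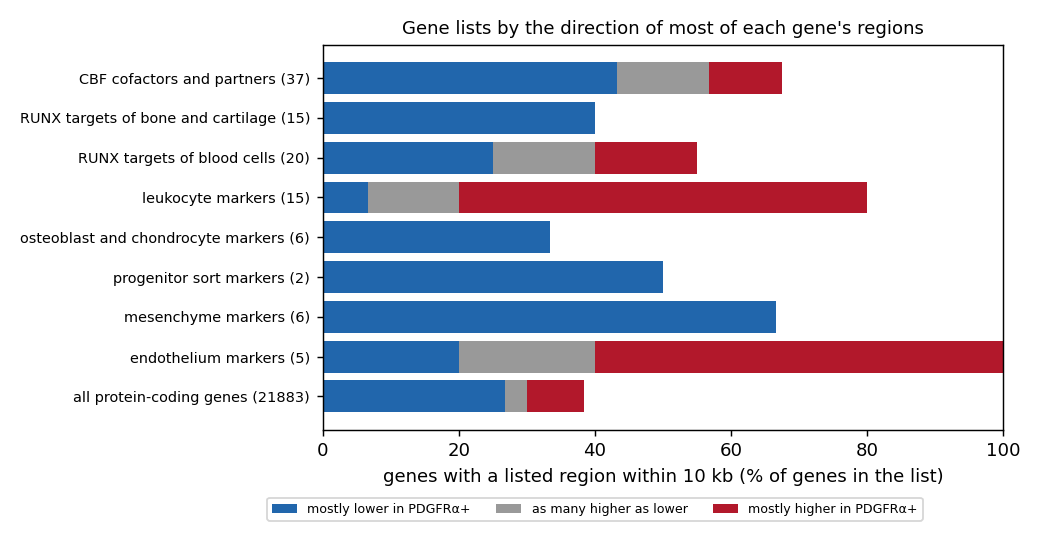
Genes with a listed region within 10 kb as a percentage of each list (x axis), split by the direction of most of their regions (blue lower, grey even, red higher in PDGFRα+), with the number of genes in brackets. Mostly higher genes are few among all protein-coding genes (1830 of 21883), and the 0 of 15 bone and cartilage targets lies close to that background. Of 15 leukocyte markers, 9 are mostly higher.

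Markers of other cell types also differed between the libraries. Most leukocyte marker regions were higher in PDGFRα+, while the endothelial markers were mixed. The few mesenchyme, osteoblast and chondrocyte markers with a region were lower, as were most genes with a region (69.9% mostly lower). Of 15 leukocyte markers, 12 had a region (80.0%, against 38.4% of all protein-coding genes). Of the 12, 9 were mostly higher (against 21.8% of all genes with a region), 1 mostly lower and 2 even, and 28 of their 33 regions were higher (84.8%, against 22.3% of all listed regions). Ptprc (8 of 8 higher) and Ikzf1 (7 of 8) held the most of these leukocyte marker regions. All 5 endothelial markers had a region, 3 mostly higher, 1 mostly lower and 1 even, with 14 of 23 regions higher (60.9%). Erg alone held 10 of the 23, with 5 in each direction. Of 6 osteoblast and chondrocyte markers, 2 had a region (33.3%, near the 38.4% of all protein-coding genes), 1 each, and both were lower. Of 6 mesenchyme markers, 4 had a region (66.7%), and all 16 of their regions were lower. Pdgfra, the gene of the sorted receptor, was lower in 2 of 2 (0.140 against 0.754). Tnfrsf9, which encodes CD137, had none within 10 kb. Some genes stand in more than 1 list (Csf1r, Erg, Ibsp and Col1a1 among those with a region). The part of other cell types in the differences at the 6 genes, in either direction, was not tested.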

How the data were processed

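Genomic DNA of 2 libraries was bisulfite-sequenced, and the authors deposited 1 table of differentially methylated regions, per the file headers. Levels of methylation are given as a deposited fraction per library, and the area statistic as a score of the region caller. The difference equals PDGFRα+ minus CD137+ within 0.0001. Coordinates are on mm10, as the submitters' processing notes say. Not given in the sources used here are the aligner, callers, thresholds and coverage minimum, so depth is unknown and only called regions are seen.

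In 86 regions lying wholly inside a RefSeq promoter window, the base after the deposited start and the end were always CpG bases, so starts were taken to count from 0 and are printed with 1 added. The number of cytosines never exceeded the CpG cytosines of both strands and equalled it in 43 of the 86.

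Regions were matched to gene spans of RefSeq GRCm38.p6 (21883 protein-coding genes). Exons were not used here. The overlap search gave 0 wrong counts in 200 genes with planted regions and 0 in 300 real genes. Members and lists were chosen with earlier results of these data known. Named genes were the 6 members with all their regions, Cbfa2t2, the 4 genes per pathway list with the largest absolute statistic, and up to 2 most alike genes for each member with at least 2 regions. Others named were chosen after their values were seen. All list symbols matched (Aes as Tle5). The tools were pandas 2.3.3, numpy 2.4.6, matplotlib 3.10.9 and scipy 1.17.1 under Python 3.11.15.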

Additional observations from a re-analysis of the deposited data

How the results depend on the processing

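The number of regions, their share higher in PDGFRα+ and their median difference were recomputed with other flanks and with stricter filters. No setting turned a direction. The number of regions fell from 37 to 22 when an absolute difference of at least 0.5 was required, and to 23 both with at least 10 cytosines and with an absolute area statistic above the median, since each filter removes regions. In the other 6 settings it was 34 to 41. The share higher stayed between 22.7% and 29.3% in all 9 settings. The median difference was -0.532 with an absolute difference of at least 0.5, which is set by that filter, and -0.501 to -0.449 in the other 8. Over 4 settings each, the median of Runx1 ranged from -0.507 to -0.474, of Runx2 from -0.414 to -0.411 and of Runx3 from -0.699 to -0.681. In place of the median, the mean weighted by cytosines was -0.410 for Runx1, -0.259 for Runx2 and -0.643 for Runx3. No paired analysis was possible because each group had 1 library. Without counts, the depth that limits each level is unknown.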
